A study of Mus musculus with 4 samples.

Results

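The genes described are 6 members of the mouse oligoadenylate synthetase (OAS) family, Oas1a, Oas1g, Oas2, Oas3, Oasl1 and Oasl2. They were chosen by symbol from the 24235 genes obtained when the deposited transcript values were summed per gene symbol. Each gene's level was followed across 4 mRNA libraries of bone marrow macrophages, which had been differentiated with M-CSF (strain C57BL/6, age 7 weeks). Wild-type (WT) and Sema6D-/- cells each gave 1 unstimulated library and 1 after lipopolysaccharide (LPS, from the outer membrane of Gram-negative bacteria), given at 100 ng/ml over 4 hours in the protocol. Sema6d encodes a transmembrane semaphorin. Its gene-level value could not check the label, as described further on, so the Sema6D-/- samples are called knockout-labelled. The labels state neither how many mice a library held, nor whether the libraries of a genotype share a culture, nor which part of Sema6d was deleted, and the protocol text mentions LPS for every sample, so "non" in 2 titles was read as unstimulated. All 6 members were at 1 FPKM or more in every library, where FPKM is fragments per kilobase of transcript scaled to depth.

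OAS enzymes are antiviral sensors. When they bind double-stranded RNA, the active members join ATP into 2-5A, short adenylate chains with 2′ to 5′ links that act as a second messenger of the antiviral response. Their genes are classic interferon targets: LPS acting on TLR4 leads macrophages to make interferon beta, whose receptor activates transcription factors, IRF9 among them, that bind interferon-stimulated response elements. Oas1a and Oas1g encode small synthetases, Oas2 and Oas3 larger ones built from repeated synthetase units. Oasl2 keeps synthetase activity in mice and carries ubiquitin-like repeats, while Oasl1 carries such repeats, lacks the enzyme activity and is known in mice to restrain translation of Irf7 mRNA.

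Promoter sequence is shown because these genes were higher together after LPS and the element is the textbook interferon site. RefSeq promoters (build GRCm38.p6, 250 bases before to 50 after the start) matched 5 of the 6 members, and were searched on both strands for the core of that element, written here as GAAA, then 2 bases of any kind, then GAAA, with overlapping matches counted. Of 32851 promoters of this length in the table, 3.44% held a match. Oas1a and Oas1g each held 2 overlapping matches, beginning 20 and 14 bases before the start in Oas1a and 18 and 12 bases before it in Oas1g. Oas3 held 1, beginning 75 bases before the start. No match to these letters lay in the windows of Oasl1 and Oasl2, and Oas2 had no entry. Capitals mark the matches in the 120 bases before the start, printed 5′ to 3′ on the gene's strand. The stretches lie at chr5:120907526-120907645 (minus strand) for Oas1a, chr5:120887614-120887733 (minus) for Oas1g, chr5:120777660-120777779 (minus) for Oas3 and chr5:114923120-114923239 (plus) for Oasl1.
Oas1a: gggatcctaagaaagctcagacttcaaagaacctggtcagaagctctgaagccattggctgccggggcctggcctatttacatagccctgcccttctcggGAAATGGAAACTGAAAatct
Oas1g: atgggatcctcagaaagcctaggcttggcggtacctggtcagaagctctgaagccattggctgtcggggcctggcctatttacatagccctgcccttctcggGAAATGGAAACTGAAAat
Oas3: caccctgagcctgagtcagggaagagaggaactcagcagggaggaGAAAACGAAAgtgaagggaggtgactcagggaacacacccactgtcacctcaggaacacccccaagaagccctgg
Oasl1: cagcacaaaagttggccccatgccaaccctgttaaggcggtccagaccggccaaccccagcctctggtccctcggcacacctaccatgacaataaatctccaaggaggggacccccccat
The Oas1a and Oas1g stretches carry the same 16 capital letters, and their 300-base promoters were identical in 85.3% of aligned columns. The Oas3 promoter was identical to that of Oas1a in 47.1% and the Oasl1 promoter in 48.3%. These were gapped alignments of 361 and 354 columns. No baseline for unrelated promoters was computed, so these 2 values do not show conservation.

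With a single library in each group there was no replicate to check a difference against, and no test was run and no p-value is given. Estimated depth was 17.2 to 23.4 M fragments, read off the steps between the lowest FPKM values. Square brackets hold 95% intervals that cover counting error only. Log2 ratios were computed on FPKM + 1, and a gene was counted as higher or lower at 2-fold or more. Sema6d itself was low, on 20 to 77 fragments per library, and not lower in the knockout-labelled libraries. It measured 0.304 and 0.219 FPKM in WT without and with LPS and 0.563 and 0.592 in the knockout-labelled libraries. The deleted part is not stated, so these values cannot check the label. Sex-linked genes separated the genotypes as well, with Xist at 22.3 and 21.4 FPKM in WT, against 0.0333 and 0.0306 in the knockout-labelled libraries, so genotype and sex cannot be told apart. All 6 macrophage markers examined were at 1 FPKM or more in every library, while summed lymphocyte, erythroid and mast cell markers each stayed below 1 FPKM. The macrophage markers differed between genotypes in both directions, 3 above and 3 below 0 in each state. Their log2 genotype ratios ran from -0.84 to 0.95 without LPS and from -1.02 (Itgam) to 1.97 (Mertk) with it. The part of these differences was not tested. Of 5 dendritic cell markers only Xcr1 reached 1 FPKM, at 0.266 and 2.52 FPKM in WT without and with LPS against 1.05 and 2.503 in the knockout-labelled libraries, and the summed level of the 5 was 0.876 to 4.13 FPKM. Its values were higher with LPS and higher in the unstimulated knockout-labelled library, as those of the members were, and the part of dendritic cells was not tested. Of 4 stromal and endothelial markers only Pecam1 reached 1 FPKM, with log2 genotype ratios of -1.31 without LPS and -1.07 with it. Of 7 neutrophil markers 6 reached 1 FPKM, and their summed level was 733 and 1118 FPKM in WT without and with LPS against 207 and 316 in the knockout-labelled libraries. In such bulk samples, fewer cells of a type and less RNA per cell cannot be told apart.

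In WT, all 6 members were at least 2-fold higher with LPS, and 10.7% of the 10375 genes compared were. None of the members was lower by that much, against 4.85% of the genes. Oasl1 stood far above the others in its response. It measured 37.2 FPKM (2194 fragments) without LPS and 1251 FPKM (47930 fragments) with LPS, a log2 ratio of 5.04 [4.98, 5.10] or 32.8-fold, which placed it 44th from the top among all genes compared. The remaining members were 2.68-fold to 4.56-fold higher. Oasl2 measured 82.5 and 380 FPKM, a log2 ratio of 2.19 [2.15, 2.23]. Oas2 measured 27.1 and 99.0 FPKM (1.83 [1.77, 1.89]), and Oas3 measured 48.8 and 160 FPKM (1.69 [1.65, 1.73]). The smallest response in WT was that of Oas1a, at 24.0 and 66.1 FPKM (1.42 [1.33, 1.52]). Oas1g, the least abundant member, measured 8.63 and 27.0 FPKM (1.54 [1.40, 1.69]).

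In the knockout-labelled libraries, again all 6 members were at least 2-fold higher with LPS, where 14.0% of 10398 genes were, and no member was lower, against 8.81% of genes. Oasl1 measured 93.6 FPKM (4002 fragments) without LPS and 1544 FPKM (48986 fragments) with LPS, a log2 ratio of 4.03 [3.98, 4.08] or 16.3-fold. Oasl2 measured 109 and 372 FPKM (1.76 [1.72, 1.80]). For Oas3 the levels were 76.9 and 230 FPKM (1.57 [1.53, 1.61]), and for Oas2 they were 35.8 and 94.9 FPKM (1.38 [1.32, 1.45]). Oas1a and Oas1g measured 31.6 and 80.9 FPKM (1.33 [1.23, 1.43]) and 9.76 and 33.7 FPKM (1.69 [1.53, 1.85]). Every member was thus higher in both LPS libraries than in both unstimulated libraries. The median log2 ratio over the members was 1.76 in WT and 1.63 in the knockout-labelled libraries, against -0.00 and 0.01 over all genes compared. The number past 2-fold depended on scaling in both genotypes. After each library was rescaled to a common total of FPKM, 5 of the 6 passed in WT, where Oas1a dropped out at 0.91. In the knockout-labelled libraries 2 of the 6 passed, Oasl1 (3.28) and Oasl2 (1.01, at the threshold), with Oas1a lowest at 0.59. Among all genes 713 (WT) and 745 (knockout-labelled) were then higher by 2-fold or more, against 1114 and 1453 before rescaling.

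**Figure D1:**
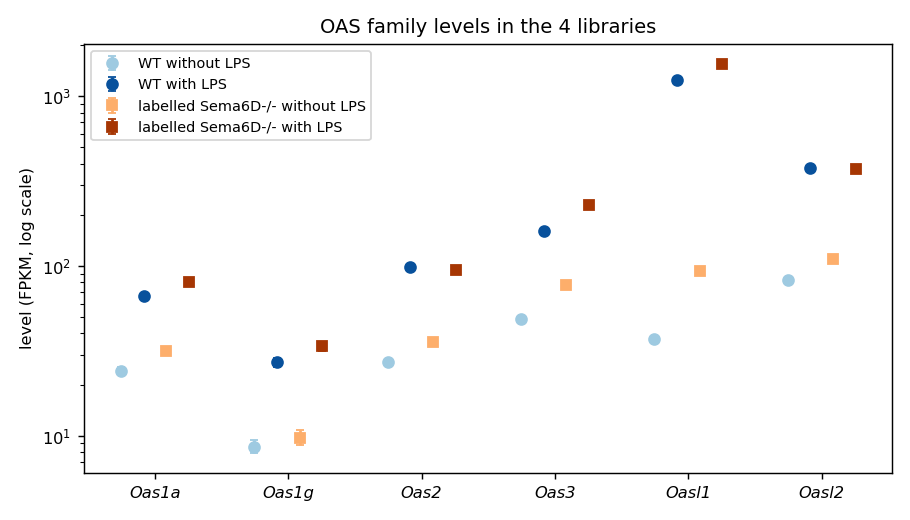
Level of each OAS member (FPKM, log axis) in the 4 libraries, 1 point per library, with bars for the 95% counting interval where they exceed the symbol. Oasl1 lies between 37.2 and 93.6 FPKM without LPS and at 1251 and 1544 FPKM with LPS, and each member is higher in both LPS libraries than in both unstimulated ones.

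The most abundant member differed with LPS. FPKM is a value per length, so levels can be set beside each other. Without LPS in WT the order from high to low was Oasl2, Oas3, Oasl1, Oas2, Oas1a and Oas1g, and in the unstimulated knockout-labelled library Oasl1 stood above Oas3. In both LPS libraries the order was Oasl1, Oasl2, Oas3, Oas2, Oas1a and Oas1g. Neighbours in these orders lay outside each other's counting intervals in every library. Oasl1 made up 16.3% of the summed FPKM of the 6 members in unstimulated WT and 63.1% with LPS, and 26.2% and 65.5% in the knockout-labelled libraries. Among all genes of a library it was the 38th and 39th most abundant with LPS in WT and in the knockout-labelled library, and the 1680th and 594th without. The summed level of the family went from 228 to 1983 FPKM in WT and from 357 to 2355 FPKM in the knockout-labelled libraries.

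The split between Oas1a and Oas1g is uncertain because the transcripts are close copies. Of the 50-base windows of the Oas1a transcript 56.9% occurred unchanged in that of Oas1g, and 54.1% of the Oas1g windows occurred in Oas1a. Oas2, Oas3, Oasl1 and Oasl2 shared no 50-base window with any of the other OAS transcripts examined. Taken as a pair, Oas1a and Oas1g measured 32.7 and 93.2 FPKM in WT and 41.4 and 115 FPKM in the knockout-labelled libraries. The log2 LPS ratios of the pair were 1.49 [1.40, 1.57] and 1.45 [1.36, 1.53]. Oas1g also had a coding and a non-coding transcript entry, and the coding entry held 84.6 and 72.0% of its FPKM in WT without and with LPS and 83.6 and 81.0% in the knockout-labelled libraries. Both entries were assigned the same length of 1977 bases. Whether reads can tell these entries apart was not tested, so these shares are uncertain too.

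The comparison of genotypes without LPS asked whether the family differed before stimulation. All 6 members had higher values in the knockout-labelled library, 1 of them, Oasl1, by 2-fold or more, where 2.51% of 10322 genes were higher by that much. The log2 ratio of Oasl1 was 1.31 [1.24, 1.38], or 2.48-fold. Oas3 followed with 0.65 [0.60, 0.69]. Oasl2 (0.40 [0.36, 0.45]), Oas2 (0.39 [0.32, 0.46]) and Oas1a (0.38 [0.27, 0.49]) lay close together, and the interval of Oas1g (0.16 [-0.02, 0.33]) included 0. The median over the members was 0.40, and over all genes compared 0.04. Neutrophil markers differed in the same contrast in the opposite direction, with 4 of 6 lower by 2-fold or more and a median of -1.57, and their part in the result was not tested.

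With LPS, 5 of the 6 members had a genotype ratio nearer to 0 than without it, and that of Oas1g was farther from 0. None of the 6 passed 2-fold, and 3.09% of 10078 genes were higher and 3.18% lower by that much. The highest ratio was that of Oas3, 0.52 [0.49, 0.56]. Oas1g (0.31 [0.18, 0.43]), Oasl1 (0.30 [0.28, 0.32]) and Oas1a (0.29 [0.20, 0.37]) had near-equal ratios. Oas2 was on the other side of 0 at -0.06 [-0.11, -0.01], and the interval of Oasl2 (-0.03 [-0.06, 0.00]) reached 0. After rescaling to a common total the ratios of Oas1a, Oas1g and Oasl1 shrank to 0.06, 0.08 and 0.07, while Oas3 had 0.30, Oas2 -0.29 and Oasl2 -0.26. Neutrophil markers were again lower, 5 of 6 by 2-fold or more with a median of -1.65, and their part was not tested.

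**Figure D2:**
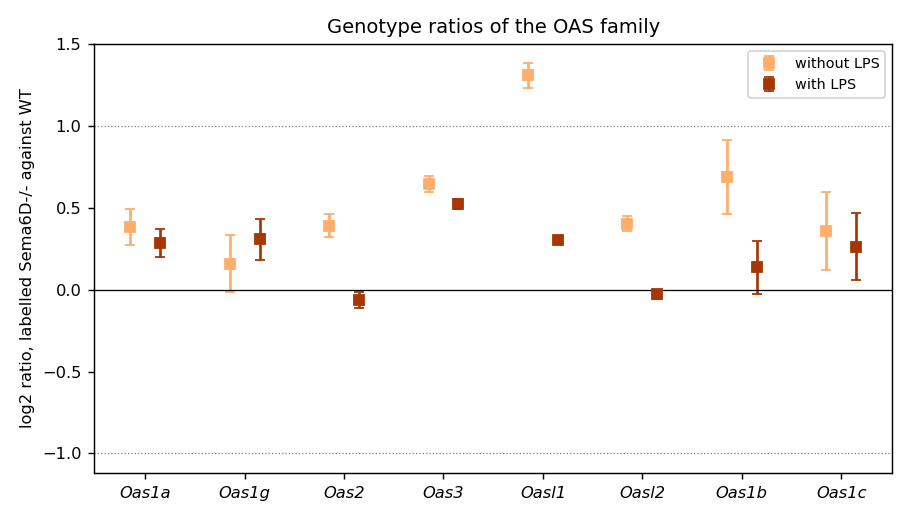
Log2 ratio of the knockout-labelled library to WT for the 6 members, Oas1b and Oas1c, without LPS (light) and with LPS (dark); bars are 95% counting intervals and dotted lines mark 2-fold. Oasl1 without LPS (1.31) lies above the dotted line, and with LPS it lies at 0.30.

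The difference of the LPS responses (knockout-labelled libraries minus WT) uses the same 4 libraries as the ratios above. It was below 0 for 5 of the 6 members, with a median of -0.28 against -0.01 over all 10680 genes compared. Only Oasl1 passed 2-fold, at -1.01 [-1.08, -0.93], and 1.25% of genes were lower by that much. That value sits at the threshold. For Oasl1 the level with LPS was 1.23-fold that of WT while the unstimulated level was 2.48-fold, so the smaller response came with a higher starting level. Oas2 (-0.45 [-0.54, -0.36]) and Oasl2 (-0.43 [-0.49, -0.38]) also had smaller responses. Oas3 had -0.12 [-0.18, -0.07], and the intervals of Oas1a (-0.10 [-0.23, 0.04]) and Oas1g (0.15 [-0.07, 0.36]) included 0. Once libraries were set to a common total, all 6 members were below 0 with a median of -0.50. Oas1g then had -0.07, Oas1a -0.32, Oas3 -0.35, Oasl2 -0.66, Oas2 -0.68 and Oasl1 -1.24. The same scaling moved the median of the 6110 genes at 5 FPKM in every library from 0.03 to -0.18. Oas1g lay above that median and the other members below it.

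**Figure D3:**
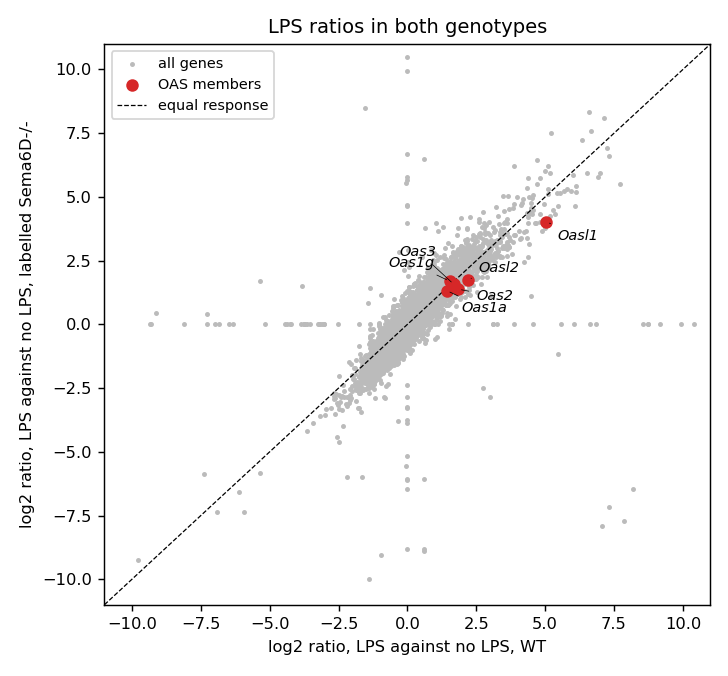
LPS log2 ratio in WT (x axis) and in the knockout-labelled libraries (y axis) for all genes that reached 1 FPKM in at least 1 of them (grey) and the OAS members (red); the dashed line marks equal ratios. Oasl1 lies at 5.04 and 4.03, apart from the other members, which lie between 1.33 and 2.19 on both axes.

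The other genes of the family sit beside the members on chromosome 5. In RefSeq gene order Oasl2 and Oasl1 form one group, and Oas2, Oas3, Oas1e, Oas1c, Oas1b, Oas1f, Oas1h, Oas1g, Oas1a and Oas1d form another. Of the 6 Oas1 genes that are not members, Oas1b and Oas1c reached 1 FPKM. Oas1b, the flavivirus resistance gene of mice, is listed as a transcribed pseudogene in the C57BL/6 reference. It measured 3.75 and 17.8 FPKM in WT without and with LPS (1.99 [1.79, 2.18]) and 6.64 and 19.7 FPKM in the knockout-labelled libraries (1.44 [1.24, 1.63]). Its FPKM was divided almost evenly between a pair of transcript entries without LPS (49.9 and 50.1% in WT), whereas 1 entry held 96.5% with LPS in WT and 95.4% in the knockout-labelled library. Both entries were assigned the same length of 1837 bases. Whether reads can tell them apart was not tested, so the split is uncertain. Oas1c measured 2.30 and 7.07 FPKM in WT and 3.23 and 8.69 FPKM in the knockout-labelled libraries. Oas1d, Oas1e and Oas1h stayed at or below 0.271 FPKM, and Oas1f was listed at 0 in all 4 libraries. Genes below 1 FPKM were thus interspersed with genes that were higher with LPS along the Oas1 group.

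**Figure D4:**
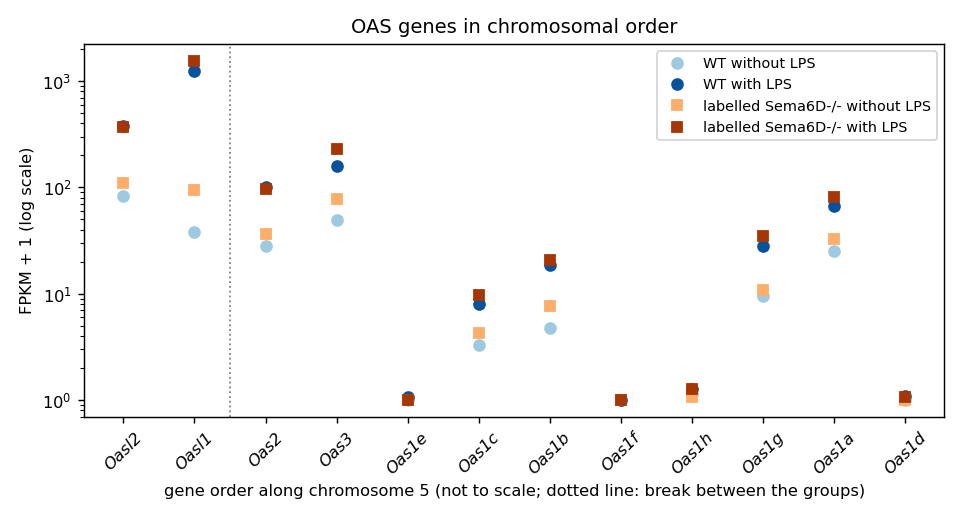
FPKM + 1 (log axis) of the OAS genes in their order along chromosome 5, not to scale, 1 point per library. Oas1e, Oas1f, Oas1h and Oas1d stay at the bottom of the axis, while genes such as Oas1b and Oas1g are higher in both LPS libraries.

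The genes listed for 2-5A turnover differed by less than 2-fold with LPS, apart from Akap7. Akap7, whose mouse protein has a 2-5A phosphodiesterase domain, measured 1.03 and 2.13 FPKM in WT and 1.22 and 5.52 FPKM in the knockout-labelled libraries. Its log2 ratios were 0.63 [0.34, 0.91] and 1.55 [1.27, 1.84], on 51 to 172 fragments per library. With LPS its log2 genotype ratio was 1.06, past 2-fold, where 3.09% of all genes were higher by that much. Pde12, which degrades 2-5A, had -0.00 [-0.10, 0.09] and 0.28 [0.17, 0.40], the latter -0.37 once libraries were set to a common total. Abce1, on the same list though a ribosome recycling factor, had -0.13 [-0.20, -0.06] and -0.04 [-0.13, 0.04]. Of these 3 genes, 0 passed 2-fold on FPKM + 1 in WT and 1, Akap7, in the knockout-labelled libraries. Of all genes 10.7% (WT) and 14.0% (knockout-labelled) were higher by that much. The 1 FPKM added understates the ratios of a gene as low as Akap7. Without it the WT values of Akap7 differed by more than 2-fold, so this split of the call rests on that addition.

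Most genes listed for double-stranded RNA sensing, which include an adaptor and regulators beside the sensors, were higher with LPS. In each genotype 8 of 9 were higher by 2-fold or more, where 10.7% (WT) and 14.0% (knockout-labelled) of all genes were. The medians were 2.11 (WT) and 2.04 (knockout-labelled). Ifih1, which encodes the sensor MDA5, measured 15.8 and 337 FPKM in WT (4.33 [4.28, 4.39]) and 24.7 and 526 FPKM in the knockout-labelled libraries (4.36 [4.31, 4.41]). Eif2ak2, which encodes the RNA-activated kinase PKR, had ratios of 2.47 and 2.38, and Adar, an RNA-editing enzyme that limits sensing of self RNA, had 1.93 and 1.78. The remaining gene, Mavs, the adaptor of RIG-I and MDA5, was lower with 16.1 and 7.54 FPKM in WT (-0.999 [-1.14, -0.86]) and 18.0 and 6.22 FPKM in the knockout-labelled libraries (-1.40 [-1.56, -1.23]).

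**Figure D5:**
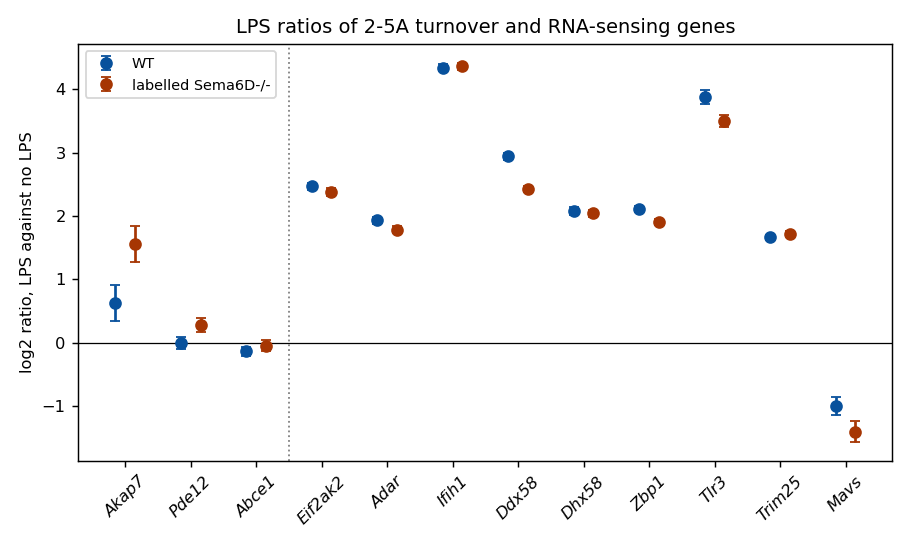
LPS log2 ratio of genes listed for 2-5A turnover (left of the dotted line) and for double-stranded RNA sensing (right), in WT (blue) and in the knockout-labelled libraries (brown), with 95% counting intervals. Ifih1 lies at 4.33 in WT and 4.36 in the knockout-labelled libraries, and Mavs lies below 0 in both.

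Several interferon signalling genes had higher values in the unstimulated knockout-labelled library. Their part in the OAS levels was not tested. Ifnb1, which encodes interferon beta, measured 0.229 FPKM (4 fragments) and 21.2 FPKM (229 fragments) in WT, and 0.394 FPKM (5 fragments) and 37.3 FPKM (342 fragments) in the knockout-labelled libraries. Without LPS its genotype ratio was 0.18 [-0.27, 0.63], and with LPS 0.78 [0.55, 1.02]. Of the 11 interferon signalling genes compared without LPS, 3 were higher by 2-fold or more in the knockout-labelled library and 0 lower. Of all genes 2.51% were higher and 2.19% lower by that much. The 3 were Stat2 (1.00 [0.95, 1.05]), Irf1 (1.12 [1.03, 1.21]) and Usp18 (1.12 [1.02, 1.21]), the last an inhibitor of interferon receptor signalling. Stat2 sits at the threshold. Irf9, a DNA-binding factor of interferon signalling, had 0.17 [0.08, 0.26]. With LPS 0 of 12 passed 2-fold, where 3.09% of all genes were higher and 3.18% lower by that much. The median was 0.47, and 0.24 once libraries were set to a common total. Irf7, whose mRNA OASL1 is known to restrain in mice, measured 227 and 949 FPKM in WT and 404 and 1427 FPKM in the knockout-labelled libraries, with LPS ratios of 2.06 and 1.82.

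Other antiviral effectors gave a scale for the family. Of 12 such genes, among them Ifit1, Rsad2 and Mx1, 10 were higher by 2-fold or more with LPS in each genotype. Of all genes compared, 10.7% (WT) and 14.0% (knockout-labelled) were. The medians of the 12 were 4.39 (WT) and 3.64 (knockout-labelled). Those medians lay above the 1.76 and 1.63 of the OAS members, whose range reached them only through Oasl1. Without LPS 8 of the 12 were higher by 2-fold or more in the knockout-labelled library (median 1.16), and with LPS 0 were (median 0.53). The shares of all genes were 2.51% without LPS and 3.09% with it. The difference of responses was below 0 for 10 of 12 (median -0.62, against -0.01 over all genes). These differences from the OAS members were not tested.

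By the shape of their values over the 4 libraries, measured as the Euclidean distance between log2(FPKM + 1) profiles centred on their own means, the protein-coding genes nearest to the mean of the members were Hsh2d, N4bp1, Plekhf2, Naa25 and Cgas. Their distances were 0.115 to 0.171 among 7794 genes that reached 5 FPKM in some library. Hsh2d was below 1 FPKM without LPS, at 0.348 in WT and 0.917 in the knockout-labelled library. The 1 FPKM added therefore understates its LPS ratios. The mean also takes in Oasl1, whose LPS ratios lay far above those of the other members. Cgas, the cytosolic DNA sensor, measured 4.61 and 22.3 FPKM in WT and 6.71 and 27.5 FPKM in the knockout-labelled libraries. The nearest gene to Oasl1 was Acod1, which makes itaconate, at a distance of 0.231, with 131 and 3917 FPKM in WT and 357 and 5883 FPKM in the knockout-labelled libraries. Nearest to the others were Tnks1bp1 for Oas1a, Aebp2 for Oas1g, Tmem140 for Oas2, Usp25 for Oas3 and Nectin4 for Oasl2, at distances of 0.0533 to 0.173. Among the members themselves Oasl1 was 2.65 to 3.22 from each of the others, which were 0.287 to 0.636 from each other.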

How the data were processed

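Messenger RNA of 4 libraries was measured, 1 per group, prepared with a stranded mRNA kit per the labels' protocols. The authors deposited FPKM values, 1 for each RefSeq transcript in each library. Cuffnorm 2.2.1, SAMtools 0.1.19, Bowtie2 2.2.3, TopHat2 2.0.13 and build mm9 are named in the submitters' processing notes; annotation, options, treatment of reads with several matches and scaling between libraries are not given in the sources used here. Of 34487 transcripts, 34163 were named from the RefSeq table of GRCm38.p6 and 187 from GENCODE vM21, 137 were left out, and values were summed per symbol. Only names, gene order, transcript sequences and promoters came from those references.

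Depth was recovered from the low FPKM values of protein-coding genes with 1 transcript: FPKM times effective length fell within 0.1 of a whole fragment for 74.6 to 75.6% of low values, against 20% by chance. Counting intervals use the fragments so estimated and cover counting error only; variation between cultures was not measured. Log2 ratios used FPKM + 1 and genes that reached 1 FPKM in a library being compared, with a size rule of 2-fold. This scale understates ratios of low genes. The median log2 ratio of 6110 genes reaching 5 FPKM in all libraries was 0.11 for LPS in WT, 0.15 for LPS in the knockout-labelled libraries, 0.03 (no LPS) and 0.06 (LPS) between genotypes, and 0.03 in the difference of responses. Centred on these medians, the medians of the members were 1.65, 1.48, 0.37, 0.23 and -0.31. Tools were Python 3.11.15, pandas 2.3.3, NumPy 2.4.6, SciPy 1.17.1 and matplotlib 3.10.9, and the ratios and the depth estimate were tested on simulated data. That simulation held counting error only, for genes with 1 transcript. It had no variation between cultures and no reads shared between genes, so it does not bear on those limits. Named genes were all members, the other Oas1 genes, pathway genes at 1 FPKM or more, and the genes of nearest profile. Some genes of these lists are not reported here and were left out of their counts. The members and lists were chosen with earlier results of these data known.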

Additional observations from a re-analysis of the deposited data

Results flagged for a closer look

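Oas2 is listed because its genotype ratios had opposite signs in the unstimulated and stimulated states, each with a counting interval off 0. The knockout-labelled library stood at a log2 ratio of 0.39 to WT when unstimulated and of -0.0604 with LPS. Each state has 1 library per genotype, and the difference between the states was not tested. The second value is small, 0.959-fold, and its size depended on scaling. It was -0.12 when centred on the median and -0.29 with libraries set to a common total.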

How the results depend on the processing

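With 1 library per group, no library could be left out. No paired analysis was possible because each group holds a single library and the labels carry no replicate numbers. Of 30 member ratios (6 genes in 5 comparisons) none changed sign with another pseudocount, another filter, centring or the leading transcript, and 1 did with libraries set to a common total of FPKM, Oas1g in the difference of responses (-0.0745). The order of levels was also the same with the leading transcript, an alternative chosen after seeing the data. What depth limits are the low genes, such as Ifnb1 without LPS (4 and 5 fragments) and Akap7. The cause of the changes below was not tested.

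With a common total, 5 members in place of 6 were 2-fold higher with LPS in WT (Oas1a at 0.91) and 2 in place of 6 in the knockout-labelled libraries. Member medians became 1.24 and 0.90 for LPS in WT and in the knockout-labelled libraries, 0.0658 between genotypes with LPS and -0.50 in the difference of responses. Over all genes, in WT 713 were higher and 1502 lower with LPS (1114 and 503 as reported), 745 and 3008 in the knockout-labelled libraries (1453 and 916), 188 higher for genotype with LPS (311), and 123 higher and 222 lower in the difference of responses (195 and 134). This scaling moved the median of the 6110 genes at 5 FPKM in every library. The shifts were -0.51 for LPS in WT and -0.71 in the knockout-labelled libraries. They were -0.21 for genotype with LPS and -0.21 in the difference of responses. Centred on the median of those genes, member medians were 1.65, 1.48 and 0.23 for LPS in WT, LPS in the knockout-labelled libraries and genotype with LPS.

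At 0.1 FPKM added, 892 and 1443 genes were lower with LPS in WT and in the knockout-labelled libraries, 406 higher and 359 lower for genotype without LPS (259 and 226 as reported), 492 lower for genotype with LPS (320), and 294 higher and 363 lower in the difference of responses. With nothing added, 917 and 1478 were lower with LPS, 408 higher for genotype without LPS, 488 lower for genotype with LPS and 373 lower in the difference.

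At a size rule of 1.5-fold, 2 members in place of 1 were higher in the knockout-labelled library without LPS. Over all genes with LPS 1793 were then higher and 1441 lower (WT), 2288 and 2093 in the knockout-labelled libraries, 718 and 601 for genotype without LPS, 1009 and 797 with LPS, and 595 and 610 in the difference. The leading transcript gave 346 higher and 332 lower in the difference, and protein-coding genes alone gave 79 lower.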

Other observations

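Genes that lead from TLR4 to interferon beta were mixed. Of 6 such genes, 2 were higher by 2-fold or more with LPS in each genotype, where 10.7% (WT) and 14.0% (knockout-labelled) of all genes were. The 2 were the kinases Tbk1 (log2 ratios of 1.14 [1.08, 1.20] in WT and 1.53 [1.46, 1.59] in the knockout-labelled libraries) and Ikbke (1.52 [1.48, 1.57] and 1.19 [1.14, 1.23]). Tlr4, the LPS receptor, measured 22.1 and 26.4 FPKM in WT without and with LPS and 13.6 and 17.8 FPKM in the knockout-labelled libraries, with genotype ratios of -0.67 [-0.76, -0.57] and -0.55 [-0.64, -0.45]. Traf3, an adaptor of the interferon arm, measured 7.55 and 10.2 FPKM in WT and 11.8 and 8.65 FPKM in the knockout-labelled libraries. None of the 6 differed by 2-fold between genotypes in either state. Of all genes 2.51% were higher and 2.19% lower by that much without LPS, and 3.09% and 3.18% with it.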
